A study of Mus musculus with 22 samples.

Results

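The SOX genes encode transcription factors that bind DNA through a high mobility group (HMG) box related to that of the sex-determining gene Sry. The genes described here are 10 members chosen by symbol from the 24411 genes of the deposited tables: Sox1, Sox2, Sox4, Sox5, Sox6, Sox8, Sox9, Sox10, Sox11 and Sox21. The tables hold 20 genes of the family, and the other 10 are given only where they passed the filter on low values. By sequence the members fall into subgroups: SOXB1 (Sox1 and Sox2), SOXB2 (Sox21), SOXC (Sox4 and Sox11), SOXD (Sox5 and Sox6) and SOXE (Sox8, Sox9 and Sox10).

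SOX proteins bend DNA at their sites and usually act with a partner factor bound next to them. In the nervous system SOXB1 factors are known for keeping neural progenitors undifferentiated, and SOXB2 factors for opposing them. SOXE factors are known for glial fate, with Sox9 in radial glia, adult neural stem cells and astrocytes and Sox10 in oligodendrocytes. SOXD proteins lack a transactivation domain and act with SOXE proteins in cartilage, and SOXC factors are known for switching on neuronal genes in immature neurons.

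RNA was sequenced from primary neural stem cells of the adult mouse hippocampus grown with EGF and bFGF at 10 ng/ml each, in 22 libraries forming 4 groups. In the knockdown arm the cells carried a lentiviral short hairpin for 3 days, at 10 viral particles per cell: either the control hairpin ShLuc (n = 6) or a hairpin against Ogt, ShOgt (n = 5). Ogt encodes the enzyme that attaches O-linked N-acetylglucosamine to nuclear and cytoplasmic proteins. In the inhibitor arm the cells received OSMI-1, a small-molecule inhibitor of that enzyme, at 12.5 µM (n = 5), or an equal volume of DMSO as vehicle (n = 6), for 24 hours. The labels give no strain, age or animal and do not say whether replicates came from separate cultures, so the p-values measure the spread between these libraries, which may be technical. Each arm was normalized on its own, so levels are compared only within an arm. In bulk RNA, fewer cells that express a gene and less RNA per cell cannot be told apart.

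The knockdown libraries held between 7.22 and 13.2 M reads (M, mega) and the inhibitor libraries between 4.52 and 12.8 M, the deepest being OSMI-1 replicate 4. Ogt itself went from 737 to 1004 normalized counts in the ShLuc libraries to 349 to 524 in the ShOgt libraries (log2 fold change -0.98 ± 0.11 SE, limma adjusted p = 1.11e-06), and it was higher after OSMI-1 (455 ± 37.6 SD to 599.9 ± 42.5, log2 fold change 0.40, adjusted p = 0.00104). The stem cell markers Nes, Vim, Slc1a3, Fabp7 and Tnc were abundant in both arms. Prom1, Msi1 and Hes5, from the same marker list, stayed at means of 15.1 or less in each group. Of this list 2 of 10 tested rose and 1 fell after knockdown, and 1 of 9 rose and 4 fell after OSMI-1. Its sum was 51152 to 53858 in ShLuc and 53210 to 62088 in ShOgt libraries. In vehicle libraries the sum was 28114 to 32904, and in OSMI-1 libraries it was lower, at 22210 to 24124. Microglial markers summed to at most 21.5 normalized counts in any library. Of 8 neuronal markers Dcx reached at most 5.97, while Map2 (3375 ± 257 in ShLuc libraries) and Tubb3 (235 ± 38.0) were well detected. Of the 4 tested in each arm 2 rose and 1 fell after knockdown, Syt1 from 46.4 ± 19.4 to 261 ± 58.4 among them (limma adjusted p = 1.69e-07), and 1 rose and 3 fell after OSMI-1. At a limma adjusted p under 0.05, 15.4% of all genes tested rose and 16.4% fell after knockdown, and 11.6% and 13.2% after OSMI-1. The neuronal list summed to between 3271 and 4038 in ShLuc and 3024 and 3449 in ShOgt libraries. In vehicle libraries it summed to between 1785 and 2303, and in OSMI-1 libraries to between 2132 and 2994. Most of each sum was Map2, whose mean went from 3375 to 2576 after knockdown and from 1862 to 2460 after OSMI-1. The means of Tubb3 and Syt1 moved the other way in both arms, so the sum mainly follows Map2. Oligodendrocyte progenitor markers were mixed: Olig1 was high at 18601 ± 1080 normalized counts in ShLuc libraries, while Gpr17 and Sox10 were at or near 0. Of those tested 3 of 5 fell and 0 rose after knockdown, and 1 of 4 rose and 0 fell after OSMI-1. Among astrocyte markers 1 of 5 tested fell and 0 rose after knockdown, and 2 of 4 rose and 1 fell after OSMI-1. All 6 of 6 cell cycle markers fell in both arms, their sum going from 16318 to 18568 down to 8393 to 10664 after knockdown and from 7466 to 8974 down to 3689 to 3958 after OSMI-1. The part of these shifts in the SOX results was not tested.

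The members share the coding sequence of the HMG box signature, a run of 27 bases near the start of the box. It is shown because it is the feature that makes these genes a family. The stretch was located in each gene by the same run of amino acids, so the differing bases are silent and do not change the protein there. Sequences are from the GENCODE mouse annotation on GRCm38, written 5′ to 3′ on the coding strand, and capitals mark the positions that differ between members.
Sox1: CgGccCatgaaCgcCttCatggtGtgg
Sox2: AgGccCatgaaCgcCttCatggtAtgg
Sox21: CgGccCatgaaCgcCttCatggtGtgg
Sox4: CgGccCatgaaCgcCttTatggtGtgg
Sox11: CgGccCatgaaCgcCttCatggtGtgg
Sox5: CgTccAatgaaTgcCttCatggtGtgg
Sox6: CgAccAatgaaTgcGttCatggtTtgg
Sox8: CgGccCatgaaTgcCttCatggtGtgg
Sox9: CgAccCatgaaCgcCttCatggtGtgg
Sox10: AgGccCatgaaCgcCttCatggtGtgg
Among the members 20 of the 27 positions were constant and 7 varied, giving 8 distinct sequences. Sox1, Sox21 and Sox11 were identical here although they belong to 3 subgroups. Sox6 stood farthest from the rest, with 6 differing bases against Sox2, Sox4 and Sox10, 4 against Sox8 and Sox9, and 3 against its SOXD partner Sox5. All 10 other SOX genes of the tables carried the signature too.

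The gene models differ in ways that bear on counting. Sox1, Sox2, Sox4, Sox11 and Sox21 have a single exon each. Sox9 has 3 exons on chromosome 11 (chr11:112782224-112787760, plus strand, GRCm38), and its signature lies in coding sequence at chr11:112782903-112782929. Sox8 also has 3 exons, on the minus strand (chr17:25565892-25570686), with the signature at chr17:25570196-25570222. Sox6 spreads 16 exons over chr7:115470872-116038796 on the minus strand, with the signature at chr7:115489736-115489762, and Sox5 spreads 15 exons over chr6:143828425-144781977, with the signature at chr6:143841247-143841273. Sox4 (chr13:28948919-28953713), Sox11 (chr12:27334264-27342574) and Sox2 (chr3:34650405-34652461) have no intron, with transcripts of 4795, 8311 and 2057 bases.

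Per length, Sox9 and Sox8 were the most abundant members in every group. Levels here are normalized counts per kilobase of the longest coding transcript. In ShLuc libraries Sox9 stood at 528 ± 74.1 (SD, n = 6) per kilobase and Sox8 at 372 ± 37.2, with ranges of 467 to 644 and 320 to 414 that do not overlap. Sox11 (109 ± 10.5) and Sox6 (90.3 ± 10.8) followed with overlapping ranges. Sox2, the SOXB1 factor most used as a neural stem cell marker, was lower at 31.9 ± 10.4, and its range of 20.9 to 50.3 overlapped that of Sox5 (17.2 ± 3.63) but not that of Sox4 (16.1 ± 4.12). Sox21 (2.62 ± 1.31) and Sox1 (1.80 ± 0.55) were close to the floor, and Sox10 averaged 0.159.

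The order was nearly the same in vehicle libraries. Sox9 stood at 233 ± 9.20 normalized counts per kilobase (SD, n = 6), Sox8 at 166 ± 16.8 and Sox11 at 103 ± 19.2. The ranges of Sox8 (132.1 to 178) and Sox11 (84.8 to 132.1) met at their ends, while the range of Sox9 (224 to 242) lay above both. Sox6 at 48.0 ± 4.66 and Sox2 at 30.0 ± 6.29 overlapped. The range of Sox5 (10.8 ± 2.17) was 8.98 to 13.8 and that of Sox4 (6.64 ± 1.93) was 2.99 to 8.35, without overlap. Dividing by all annotated exon bases in place of the longest transcript lowered Sox6 to 52.8 and Sox5 to 8.67 per kilobase in ShLuc libraries, which placed Sox5 below Sox4. Sox10, the SOXE member of oligodendrocytes, was the SOXE gene that these libraries barely held, beside a high level of Olig1.

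**Figure D1:**
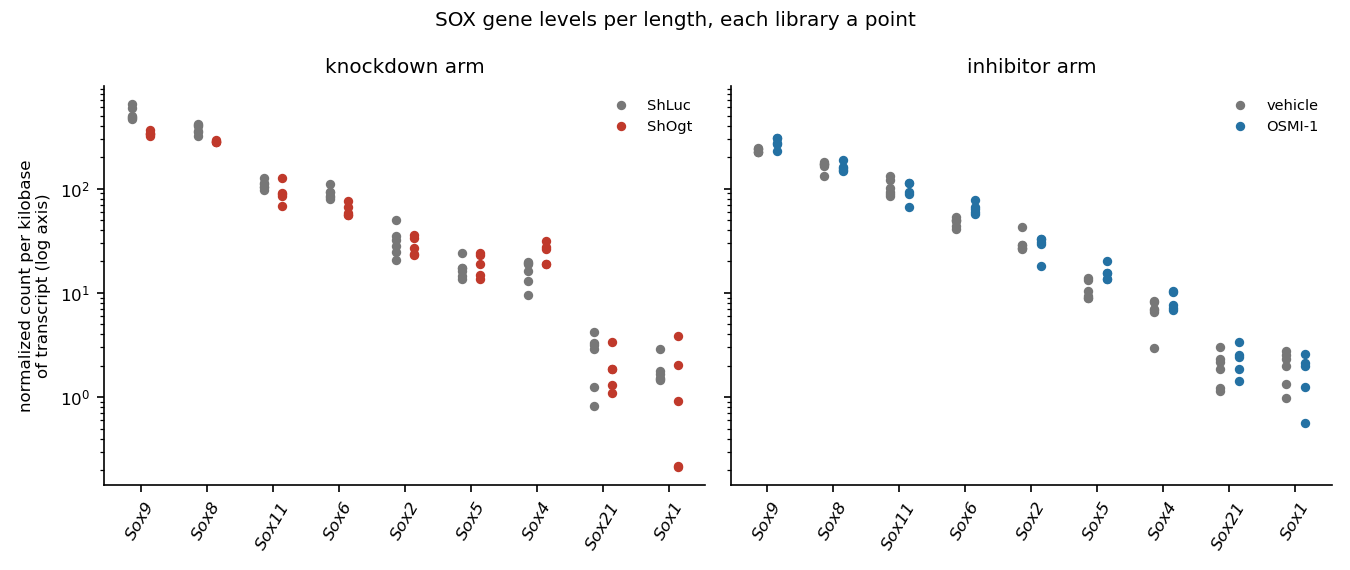
Normalized counts per kilobase of the longest coding transcript (log axis) for 9 SOX members, each point a library, in the knockdown arm (left: ShLuc grey, ShOgt red) and the inhibitor arm (right: vehicle grey, OSMI-1 blue). Sox9 and Sox8 lead in each group and Sox21 and Sox1 lie lowest; Sox10, with reads in few libraries, is left out.

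Of the 10 members, 8 passed the filter on low values after knockdown or its control hairpin and 7 in the inhibitor arm. Calls are at a limma adjusted p under 0.05 over all genes tested, and fold changes are on the log2(normalized count + 1) scale, which understates changes of low genes. After knockdown 3 members fell (Sox9, Sox6, Sox8) and 1 rose (Sox4), where 31.8% of the 12136 genes tested were called. The median log2 fold change of the 8 tested members was -0.30, against 0.01 over all genes tested. After OSMI-1 3 members rose (Sox6, Sox5, Sox9) and none fell, where 24.8% of 11349 genes were called, and the median of the 7 tested members was 0.24 against 0.00. In the knockdown arm 3 of the 8 had groups that did not overlap, all lower, where 9.96% of all genes tested separated downward (8.83% upward, 18.8% in either direction). In the inhibitor arm 1 of the 7 did, higher, where 6.27% of genes separated upward (7.71% downward, 14% in either direction). Of the genes tested 15.4% were called higher and 16.4% lower after knockdown, and 11.6% higher and 13.2% lower after OSMI-1. Earlier work on these data found 5 libraries apart on principal components (ShLuc 1 and 3, ShOgt 3, vehicle 1 and OSMI-1 5). Without them 4 members were again called after knockdown and 3 after OSMI-1. With so few members these shares were not tested against the background.

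**Figure D2:**
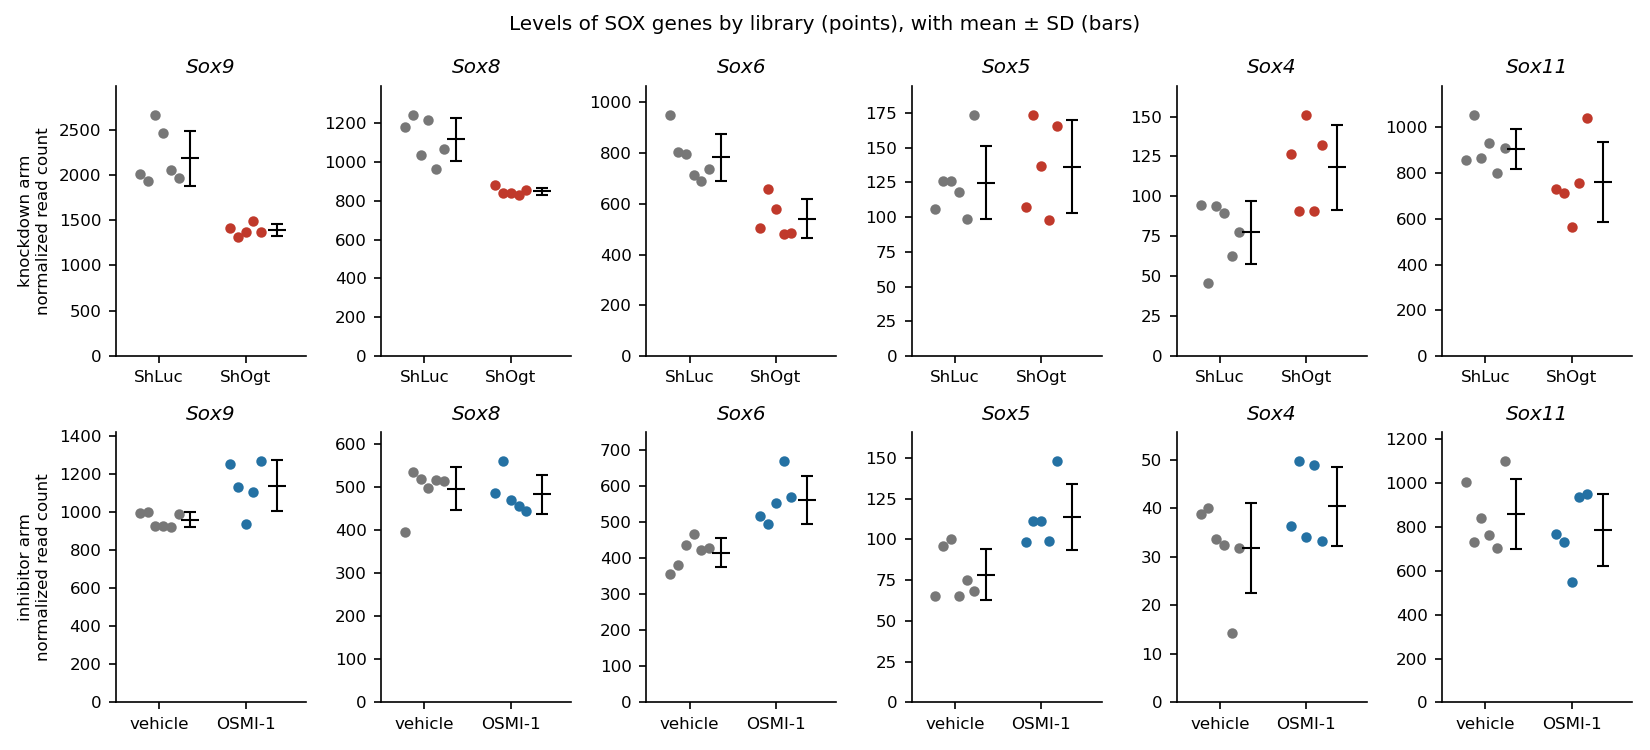
Normalized read counts of 6 SOX genes in every library (points) with mean ± SD (bars), in the knockdown arm (top: ShLuc grey, ShOgt red) and the inhibitor arm (bottom: vehicle grey, OSMI-1 blue), on linear axes from 0. In the top row the ShOgt points of Sox9, Sox8 and Sox6 lie below every ShLuc point, and in the bottom row the OSMI-1 points of Sox6 lie above every vehicle point.

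Among the SOXE genes, Sox9 fell after Ogt knockdown and rose modestly after OSMI-1. Sox9 maintains glial and stem cell identity in the adult hippocampus. The ShLuc libraries 1 to 6 held 2007, 1933, 2663, 2469, 2054 and 1969 normalized counts of Sox9, and the ShOgt libraries 1, 2, 3, 5 and 6 held 1411, 1312, 1366, 1496 and 1368. Every ShOgt library lay below every ShLuc library. Such a separation downward occurred in 9.96% of all genes tested in this arm. Mean Sox9 fell by 36.3%, from 2182 ± 306 (SD, n = 6) to 1391 ± 68.6 (n = 5) (log2 fold change -0.64 ± 0.09 SE, limma adjusted p = 1.39e-05). ShLuc replicates 3 and 4 were the 2 highest, and without the 3 knockdown libraries that stood apart the log2 fold change was -0.59.

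In the inhibitor arm Sox9 was tightly grouped in vehicle and spread out after OSMI-1. The vehicle libraries 1 to 6 held 997.7, 1002, 928.8, 927.3, 924.7 and 988.5 normalized counts, and the OSMI-1 libraries 1, 2, 4, 5 and 6 held 1252, 1133, 938.1, 1105 and 1267. OSMI-1 replicate 4, the deepest library, lay inside the vehicle range and the other 4 lay above it. The mean went from 961 ± 38.1 to 1139 ± 133 (log2 fold change 0.24 ± 0.08 SE, 95% interval 0.08 to 0.40, limma adjusted p = 0.0277). This call rests on single libraries: the limma adjusted p was 0.0548 without vehicle 3, 0.0589 without vehicle 4, 0.0571 without vehicle 5, 0.0757 without OSMI-1 1 and 0.0846 without OSMI-1 6.

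Sox8, the SOXE paralog that overlaps Sox9 in function in glia, fell after knockdown and showed no call after OSMI-1. Its ShLuc libraries held 1180, 1242, 1036, 1214, 961.3 and 1068 normalized counts and its ShOgt libraries 878.7, 837.5, 841.3, 830.2 and 856.3. The groups did not overlap, and the ShOgt libraries lay within a narrow band. The mean went from 1117 ± 112 to 849 ± 19.2 (log2 fold change -0.39 ± 0.08 SE, limma adjusted p = 0.00115). With DMSO the vehicle libraries held 396.2, 534.7, 519.9, 498.1, 516.6 and 513.6 and the OSMI-1 libraries 485.8, 559.6, 469.1, 455.8 and 444.4. Vehicle replicate 1 was the lowest library of all 11 and the groups overlapped. The log2 fold change was -0.04 ± 0.09 SE with a 95% interval from -0.23 to 0.15 (limma adjusted p = 0.807).

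The first exon of Sox8 overlaps an antisense gene, 2810468N07Rik, over 329 bases at chr17:25570358-25570686 on GRCm38. Whether the counting used strand is not given in the sources used here, so reads of this stretch from either gene cannot be told apart. The antisense gene went from 150.2 ± 33.1 to 105 ± 27.2 normalized counts after knockdown (log2 fold change -0.52 ± 0.19 SE, limma adjusted p = 0.0486). After OSMI-1 it rose from 49.4 ± 13.5 to 103 ± 13.8 (log2 fold change 1.08 ± 0.19 SE, limma adjusted p = 0.00017), and its groups did not overlap. Both genes of the pair were lower after knockdown, and after OSMI-1 the antisense gene rose while Sox8 was not called.

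Sox10, the third SOXE gene, gave too few reads for any comparison. In the knockdown arm 2 ShLuc libraries held 3 reads between them and 1 ShOgt library held 2. Among inhibitor libraries 1 vehicle library held 1 read, and all 9 OSMI-1 reads came from replicate 4, the deepest library. Every other library was at 0.

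Among the SOXD genes, Sox6 moved in opposite directions in the 2 arms and separated the groups in both. Sox6 is a cofactor of SOXE proteins in cartilage. Its ShLuc libraries held 950.9, 804.9, 798.6, 714.7, 690.9 and 738.9 normalized counts and its ShOgt libraries 504.3, 657, 581.6, 481.3 and 484.8. The highest ShOgt library, replicate 2, stayed below the lowest ShLuc library, replicate 5. Mean Sox6 fell by 30.8%, from 783 ± 93.8 to 542 ± 76.1 (log2 fold change -0.53 ± 0.11 SE, limma adjusted p = 0.000685).

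After OSMI-1 Sox6 was higher in every library. The vehicle libraries held 355.4, 382.4, 437.2, 467.5, 422.4 and 430.2 normalized counts and the OSMI-1 libraries 516.7, 496.7, 554.7, 669.4 and 570.4. No libraries overlapped, a separation upward that 6.27% of the genes tested in this arm showed. Mean Sox6 rose by 35.0%, from 416 ± 40.4 to 562 ± 67.0 (log2 fold change 0.43 ± 0.09 SE, limma adjusted p = 0.00151). OSMI-1 replicate 5 was the highest, and without it and vehicle replicate 1, the 2 that stood apart, the log2 fold change was 0.32 (limma adjusted p = 0.0137). A 2-sided exact permutation test over the 462 splits of each arm gave p = 0.00216 for Sox6 in both arms. For Sox9 this exact permutation test gave p = 0.00216 after knockdown and 0.0152 after OSMI-1. The exact permutation test gave p = 0.00433 for Sox8 and 0.0368 for Sox4 after knockdown, and 0.0152 for Sox5 after OSMI-1. These values are not adjusted for the number of genes. The value 0.00216 is the smallest that 462 splits can give, so it adds little to the separation of the groups.

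Sox5, the other SOXD gene, rose after OSMI-1 and was not called after knockdown. Its vehicle libraries held 65.36, 95.61, 100.1, 65.01, 75.17 and 68.17 normalized counts and its OSMI-1 libraries 98.43, 111.5, 111.5, 99.04 and 147.8. The groups overlapped only through vehicle replicate 3, and OSMI-1 replicate 6 was far above the rest. The mean went from 78.2 ± 15.7 to 114 ± 20.1 (log2 fold change 0.54 ± 0.16 SE, limma adjusted p = 0.0185), and the limma adjusted p was 0.0677 without OSMI-1 replicate 6.

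In the knockdown arm the Sox5 groups covered the same range. The ShLuc libraries held 105.6, 125.9, 126, 118.1, 98.69 and 173.4 normalized counts and the ShOgt libraries 107.6, 173.6, 136.9, 98.17 and 165.4. The log2 fold change was 0.12 ± 0.19 SE with a 95% interval from -0.28 to 0.51 (limma adjusted p = 0.68). The count of Sox6 over that of Sox5 within a library, not corrected for length, went from 6.51 ± 1.54 in ShLuc to 4.11 ± 0.787 in ShOgt libraries and from 5.49 ± 1.19 in vehicle to 5.06 ± 1.09 in OSMI-1 libraries.

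Among the SOXC genes, Sox4 rose after knockdown and Sox11 was not called. Both are known for activating neuronal genes, and Sox4 is also broadly expressed outside the nervous system. The ShLuc libraries held 94.82, 45.7, 93.72, 89.86, 62.63 and 77.62 normalized counts of Sox4 and the ShOgt libraries 126.3, 90.75, 151, 90.7 and 132.1. All 5 ShOgt libraries lay above the ShLuc median, but ShOgt 2 and 5 fell inside the ShLuc range. The mean went from 77.4 ± 19.7 to 118 ± 26.7 (log2 fold change 0.62 ± 0.22 SE, limma adjusted p = 0.037), from 49 to 142 reads a library. The limma adjusted p was 0.0836, 0.0744 and 0.0539 without ShLuc 2, 5 or 6, and 0.0839, 0.0941 and 0.0818 without ShOgt 1, 3 or 6. With no filter on low values it was 0.0709.

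After OSMI-1 Sox4 was not called. The vehicle libraries held 38.81, 40.02, 33.72, 32.5, 14.32 and 31.74 normalized counts and the OSMI-1 libraries 36.45, 49.67, 34, 48.92 and 33.22. Vehicle replicate 5 lay far below the others and the groups overlapped. The log2 fold change was 0.38 ± 0.26 SE with a 95% interval from -0.16 to 0.92 (limma adjusted p = 0.311), and it was 0.17 without vehicle replicate 5 (limma adjusted p = 0.638).

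Sox11 had the highest level of the intronless members. Its ShLuc libraries held 858.8, 1055, 867.1, 933, 799 and 911.3 normalized counts and its ShOgt libraries 730.2, 711.2, 564.7, 755.5 and 1042. ShOgt replicate 6 was near the top of the ShLuc range while the other 4 lay below all of it. With all libraries the log2 fold change was -0.27 ± 0.12 SE (limma adjusted p = 0.0926), and without ShOgt replicate 6 it was -0.39 (limma adjusted p = 0.00711). Without ShOgt replicate 3, the lowest library, it was -0.17 (limma adjusted p = 0.249), and without the 3 knockdown libraries that stood apart it was -0.20 (limma adjusted p = 0.202).

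With the inhibitor and its vehicle the Sox11 libraries of both groups were spread widely. Vehicle held 1004, 731.5, 838.5, 764.8, 705.2 and 1098 normalized counts and OSMI-1 766.4, 728.8, 549.1, 936.7 and 949.6. The log2 fold change was -0.13 ± 0.13 SE with a 95% interval from -0.40 to 0.13 (limma adjusted p = 0.492). The count of Sox11 over that of Sox4 within a library, not corrected for length, was 9.06 to 23.1 in ShLuc and 3.74 to 8.33 in ShOgt libraries, and the groups did not overlap. The ratio was 18.3 to 49.2 in vehicle and 14.7 to 28.6 in OSMI-1 libraries, which did overlap. The ratios were not tested.

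The SOXB1 gene Sox2 was not called in either arm. Its ShLuc libraries held 42.94, 50.37, 58.28, 72.09, 103.4 and 66.53 normalized counts and its ShOgt libraries 55.14, 69.05, 73.4, 46.95 and 48.9. The ShOgt range lay inside the ShLuc range. The log2 fold change was -0.12 ± 0.24 SE, and its 95% interval from -0.63 to 0.38 leaves room for a change of the size seen for Sox8 (limma adjusted p = 0.737). It was 0.02 without ShLuc replicate 5 and -0.37 without the 3 knockdown libraries that stood apart, and neither passed the test.

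After OSMI-1 Sox2 also stayed within its spread. Vehicle libraries held 87.82, 55.59, 55.47, 59.27, 53.69 and 58.77 normalized counts and OSMI-1 libraries 62.88, 66.9, 37.44, 66.82 and 60.71. Vehicle replicate 1 stood high and OSMI-1 replicate 4 low. The log2 fold change was -0.07 ± 0.20 SE with a 95% interval from -0.48 to 0.33 (limma adjusted p = 0.821), and it was 0.08 without OSMI-1 replicate 4. Sox2 lies within Sox2ot, a long noncoding gene on the same strand, which averaged 74.4 and 68.7 normalized counts in ShLuc and ShOgt libraries (limma adjusted p = 0.717) and 31.3 and 29.5 in vehicle and OSMI-1 libraries (limma adjusted p = 0.851).

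Sox1, a SOXB1 paralog of Sox2, and the SOXB2 gene Sox21 were at the edge of detection. Sox21 ranged from 3.13 to 16.1 normalized counts in ShLuc and 4.16 to 12.8 in ShOgt libraries (log2 fold change -0.34 ± 0.55 SE, limma adjusted p = 0.685). In the inhibitor arm it was below the filter, at 7.49 ± 2.70 in vehicle and 8.84 ± 2.81 in OSMI-1 libraries. Sox1 was below the filter in both arms, at 8.69 ± 2.66 and 7.04 ± 7.47 in ShLuc and ShOgt and 9.60 ± 3.39 and 8.26 ± 3.87 in vehicle and OSMI-1 libraries, from 1 to 24 reads each. The interval of the Sox21 log2 fold change after knockdown, from -1.49 to 0.82, leaves room for a sizeable change in either direction. With no filter on low values neither Sox1 nor Sox21 was called in either arm. At so few reads small differences of these genes could be missed. Of the other SOX genes, Sox12 and Sox13 passed the filter and neither was called in either arm, with Sox13 at 45.2 and 39.1 normalized counts after ShLuc and ShOgt (limma adjusted p = 0.483) and at 23.1 and 32.7 after vehicle and OSMI-1 (limma adjusted p = 0.25). Sox12 stood at 35.5 and 34.1 and at 17.9 and 16.8 in the same order of groups (limma adjusted p = 0.93 and 0.819).

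**Figure D3:**
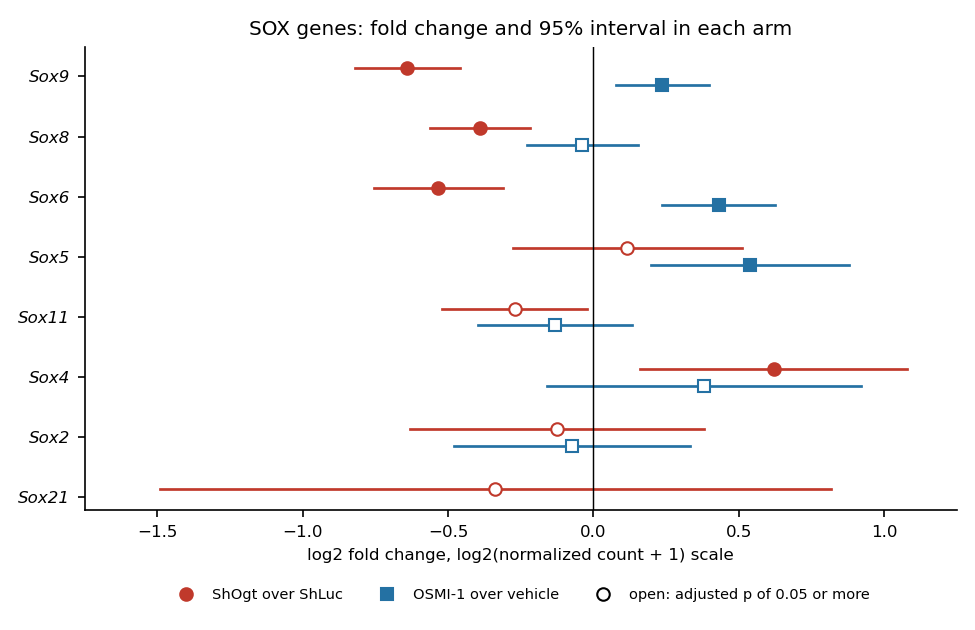
Log2 fold changes of 8 SOX genes with their 95% intervals (x axis, log2(normalized count + 1) scale), red circles for ShOgt over ShLuc and blue squares for OSMI-1 over vehicle, open symbols for a limma adjusted p of 0.05 or more. Sox9 and Sox6 lie on opposite sides of 0 in the 2 arms, at -0.64 and 0.24 and at -0.53 and 0.43.

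The 2 arms share no library, and the difference between their fold changes was tested directly in a single limma fit over 4 groups and 11269 genes, of which 22.9% were called. For Sox9 the knockdown log2 fold change was lower than that of OSMI-1 by a difference of -0.88 ± 0.12 SE (95% interval -1.12 to -0.64, adjusted p = 1.13e-06). The difference was -0.96 ± 0.14 SE for Sox6 (-1.25 to -0.67, adjusted p = 5.57e-06) and -0.35 ± 0.12 SE for Sox8 (-0.60 to -0.10, adjusted p = 0.034). Sox9 and Sox6 kept this call in every alternative run. The Sox8 call was lost without ShLuc 2, ShLuc 4, ShOgt 2, ShOgt 5, vehicle 1 or OSMI-1 2, each left out alone, or without the 5 libraries that stood apart, at limma adjusted p from 0.0525 to 0.0784. The remaining 4 members tested in both arms were not called: Sox5 at -0.42 ± 0.25 SE (adjusted p = 0.243), Sox4 at 0.24 ± 0.34 (0.668), Sox11 at -0.14 ± 0.19 (0.649) and Sox2 at -0.05 ± 0.31 (0.931). For Sox5, a call in one arm and not in the other was thus not shown to be a difference between arms. The arms differ in agent, in duration and in the virus, and these cannot be told apart.

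**Figure D4:**
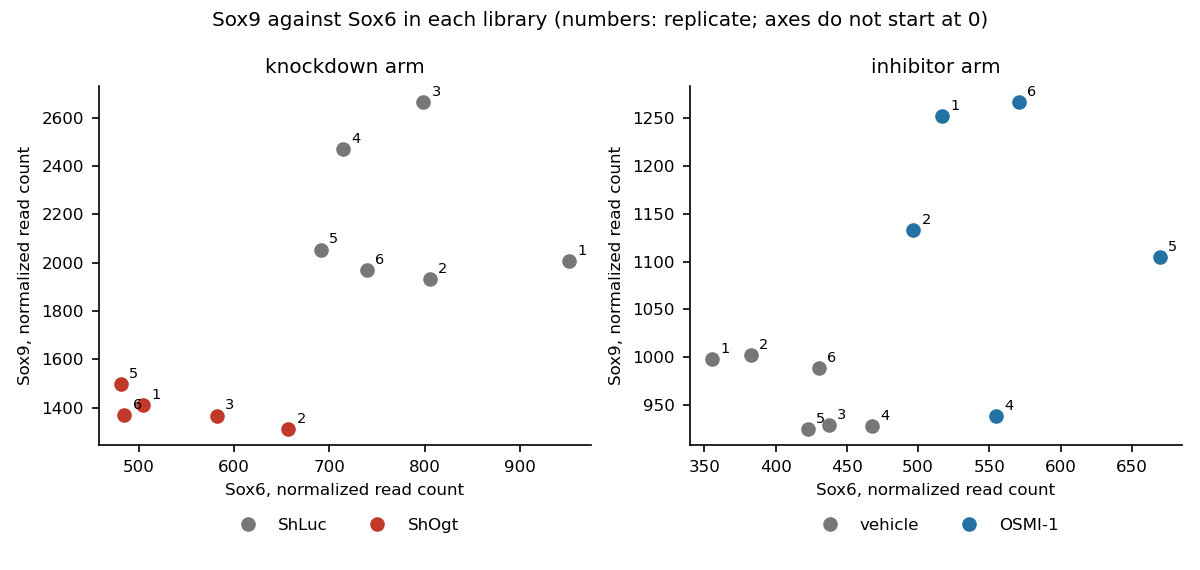
Sox9 against Sox6 in each library, both in normalized read counts on axes that do not start at 0, for the knockdown arm (left: ShLuc grey, ShOgt red) and the inhibitor arm (right: vehicle grey, OSMI-1 blue), numbered by replicate. The ShOgt libraries lie lower on both axes than the ShLuc libraries, and the OSMI-1 libraries lie to the right of the vehicle libraries, with replicate 4 at the vehicle level of Sox9.

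The 3 members that fell after knockdown share that fall, which by itself gives high correlations over the libraries of the arm. Whether they varied together within a group was not tested. Pearson correlations of log2 values over the 11 libraries of an arm, which mix both groups and so carry the group difference, were 0.82 for Sox6 and Sox8, 0.79 for Sox8 and Sox9 and 0.72 for Sox6 and Sox9 in the knockdown arm. Over the inhibitor libraries the same pairs stood at -0.10, -0.18 and 0.50. Sox5 correlated with Sox6 at -0.04 over the knockdown libraries and 0.61 over the inhibitor libraries. The Sox9 to Sox8 count ratio, not corrected for length, went from 1.97 ± 0.362 to 1.64 ± 0.0933 after knockdown and from 1.96 ± 0.279 to 2.38 ± 0.365 after OSMI-1. These values describe the libraries and were not tested.

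Ranked over 11269 genes by the mean of the 2 arms' correlations over 11 libraries each, the gene most like Sox9 was Gng12, a G protein gamma subunit (mean r = 0.90), followed by Pitpnc1 and Zfand6 (both 0.87). Because the correlations mix both groups, a gene ranked high for a member tends to share that member's changes. Such changes are no separate result, and the top values of 11269 genes are high in part by selection. Gng12 went from 1889 ± 125 to 984 ± 49.7 normalized counts after knockdown and from 1507 ± 65.4 to 1828 ± 212 after OSMI-1. Ppp1r16b (0.90), Rab26 (0.88) and Hsd17b7 (0.87) were most like Sox6, and Ppp1r16b went from 327 ± 48.1 to 166 ± 29.3 and from 81.4 ± 17.6 to 163 ± 11.5. Sox8 was nearest to Usp10 (0.79), Sema3d (0.78) and Fam134c (0.77). Sox11 was nearest to Kpnb1 (0.91), the importin beta subunit, Morf4l1 (0.90) and Casp8ap2 (0.86), and Kpnb1 was called in neither arm (limma adjusted p = 0.257 and 0.431). The nearest genes were less alike for Sox5 (Fchsd2 at 0.78, Pkn2 and Rlf at 0.72), Sox4 (Fahd2a at 0.75, 9530053A07Rik and 1110034G24Rik at 0.74) and Sox2 (Ina at 0.71, Prss35 at 0.68, Mex3b at 0.67).

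Of 20 tested transcription factors known to work beside SOX proteins, 10 fell after knockdown and none rose, where 16.4% of all genes tested fell and 15.4% rose. The median log2 fold change of the list was -0.41 against 0.01 over all genes. Olig1, the bHLH factor of the oligodendrocyte lineage, fell from 18601 ± 1080 to 10256 ± 586 normalized counts (log2 fold change -0.86, limma adjusted p = 2.05e-09). The POU factor Pou3f1 fell from 189 ± 18.5 to 78.2 ± 14.6 (-1.27, limma adjusted p = 5.5e-06), and the nuclear factor I gene Nfic from 401 ± 35.9 to 218 ± 41.8 (-0.89, limma adjusted p = 3.6e-05). After OSMI-1 4 of 19 rose and 5 fell, beside 11.6% and 13.2% of all genes, with a median of -0.19 against 0.00. Pax6 fell from 106 ± 25.2 to 55.5 ± 24.2 (limma adjusted p = 0.00249) and Nfic from 269.9 ± 35.5 to 198 ± 27.2 (limma adjusted p = 0.00687), while Pou3f1 rose from 115 ± 17.2 to 166 ± 27.7 (limma adjusted p = 0.00932). The arm difference was -1.08 for Olig1 (adjusted p = 9.17e-10) and -1.80 for Pou3f1 (adjusted p = 9.44e-08), and it was not called for Nfic (-0.45, adjusted p = 0.0656) or Pax6 (0.60, adjusted p = 0.119).

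Of 7 tested genes known as targets of SOXE factors in astroglia, 3 fell after knockdown and none rose, beside 16.4% and 15.4% of all genes, at a median log2 fold change of -0.42 against 0.01. The glutamate transporters Slc1a3 (12303 ± 473 to 8547 ± 328 normalized counts, limma adjusted p = 3.28e-07) and Slc1a2 (386 ± 55.3 to 279.9 ± 47.1, limma adjusted p = 0.00998) were among them, with Nfia (1176 ± 150 to 953 ± 115, limma adjusted p = 0.0297). Nfia is also on the partner list. After OSMI-1 2 of 6 rose and 1 fell, beside 11.6% and 13.2% of all genes, at a median of 0.14 against 0.00. S100b rose from 58.3 ± 13.7 to 142 ± 33.3 (limma adjusted p = 2.53e-05) and Aldh1l1 from 1410 ± 107 to 1750.2 ± 106 (limma adjusted p = 0.00175). Slc1a3 fell there too, from 5318 ± 277 to 3455 ± 170 (limma adjusted p = 4.27e-08), and its arm difference of 0.10 was not called (adjusted p = 0.386).

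Oligodendrocyte and myelin targets of SOXE factors were mostly too low to test, as Sox10 was. Of 13 genes 4 were tested in each arm, at a median log2 fold change of 0.50 after knockdown and -0.36 after OSMI-1. The list had 1 gene higher and 1 lower after knockdown (15.4% and 16.4% of all genes) and 1 lower after OSMI-1 (13.2%). After knockdown Cspg4, which encodes the progenitor proteoglycan NG2, fell from 306 ± 44.6 to 163 ± 62.9 normalized counts (limma adjusted p = 0.000424) and Cnp rose from 1606 ± 106 to 1903 ± 166 (limma adjusted p = 0.0188). After OSMI-1 Mbp fell from 19.5 ± 6.73 to 8.40 ± 9.48 (limma adjusted p = 0.0273). Only 2 of the 11 cartilage matrix targets of SOXE and SOXD factors were tested, and neither was called in either arm.

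Among neural stem cell genes known as SOXB1 targets, 1 of 11 rose and 1 fell after knockdown, beside 15.4% and 16.4% of all genes, with a median log2 fold change of -0.10 against 0.01. Cdh2, which encodes N-cadherin, rose from 2197 ± 259 to 2595 ± 201 normalized counts (limma adjusted p = 0.0309), and Pax6, which is also on the partner list, fell from 188 ± 23.1 to 143 ± 10.0 (limma adjusted p = 0.0362). After OSMI-1 2 of 11 rose and 3 fell, beside 11.6% and 13.2% of all genes, with a median of 0.06 against 0.00. The receptor gene Egfr rose from 775 ± 51.8 to 1112 ± 96.1 (limma adjusted p = 1.67e-05), and the fatty acid binding protein gene Fabp7 fell from 8976 ± 1260 to 6282 ± 1352 (limma adjusted p = 0.000922).

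Neuronal genes known as SOXC targets split within each arm and between arms. After knockdown 1 of 5 rose and 2 fell, beside 15.4% and 16.4% of all genes, with a median log2 fold change of -0.22 against 0.01. Tubb3, a neuronal tubulin, rose from 235 ± 38.0 to 397 ± 25.8 normalized counts (limma adjusted p = 0.000108), while the microtubule genes Map2 (3375 ± 257 to 2576 ± 163, limma adjusted p = 0.000241) and Stmn1 (2791 ± 194 to 2161 ± 193, limma adjusted p = 0.000618) fell. After OSMI-1 1 of 5 rose and 3 fell, beside 11.6% and 13.2% of all genes, with a median of -0.47 against 0.00. There Tubb3 fell from 88.5 ± 14.1 to 50.2 ± 6.02 (limma adjusted p = 0.00109) and Stmn1 from 1993 ± 125 to 886 ± 92.4 (limma adjusted p = 4.54e-11), while Map2 rose from 1862 ± 189 to 2460 ± 379 (limma adjusted p = 0.0024). The arm difference was called for Tubb3 (1.57, adjusted p = 3.32e-07), Map2 (-0.78, adjusted p = 9.41e-06) and Stmn1 (0.80, adjusted p = 5.96e-07).

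In earlier work on these tables, genes with the letters AACATGC in a 3′UTR, read on the transcript strand, fell more often after knockdown than others. Of the 1155 tested genes with those letters 28.3% fell, against 16.9% of all 11348 tested genes with a searched 3′UTR. None of the 10 SOX members carries these letters in an annotated 3′UTR, Sox9, Sox8 and Sox6 included. That says only that the letters are not in those annotated stretches.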

How the data were processed

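Of 22 libraries, 11 belong to each arm. Per the labels the RNA was poly(A)-selected with a strand-specific kit, while the series' design text names Smart-Seq2. The submitters' processing notes list STAR, RSEM and DESeq2 without versions, and the build hg38, although the gene symbols are mouse; the strand setting is not given in the sources used here. The authors deposited, per table, a normalized signal for each library (counts divided by a size factor), a mean signal, log2 fold changes with standard errors, a score (the test statistic) and p-values. Their deposited log2 fold changes run ShOgt over ShLuc, but vehicle over OSMI-1, and are not used for the results.

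The normalized counts were whole multiples of 1 step per library (tolerance 0.001), which gave back whole reads for 100% of values and the depths in the text. Genes were kept by filterByExpr on those reads (minimum count 10, minimum total 15). The test was limma 3.58.1 on log2(normalized count + 1), with the prior variance following mean level, two-sided, with Benjamini-Hochberg adjustment over all genes of the arm and a threshold of 0.05, in R 4.3.3. Count tests on the recovered reads (edgeR 4.0.16, DESeq2 1.42.0) called 3848 and 4063 genes after knockdown and 2804 and 2964 after OSMI-1, against 3855 and 2815. The other alternatives were pseudocounts of 0.5 and 5, no filter, other scalings, a replicate block and leaving out libraries. The scripts were tested on simulated data. Lengths and coordinates come from GENCODE on GRCm38, matched by symbol.

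The members and gene lists were chosen with earlier results of these data known. Some genes, such as Pax6, Nfia, Tubb3 and Map2, are on more than a single list of targets, partners or markers, so the list counts are not independent. Named genes are all members, the other SOX genes that passed the filter, Ogt, the antisense or overlapping partners of members, up to 3 called genes with the smallest adjusted p per list and arm, and the 3 genes most alike per member. Intervals are at 95%. All per-library columns were used.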

Additional observations from a re-analysis of the deposited data

Results flagged for a closer look

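In 7 of 37 groups of members a single library stood far from the others of its group. The cutoff is set to flag about 1 in 20 groups of independent, normally distributed values. Groups of different members share libraries here and some hold few reads, so the rate that chance gives is not known. They were Sox1 in ShLuc 2 (13.99 normalized counts), Sox2 in vehicle 1 (87.8) and OSMI-1 4 (37.4), Sox4 in vehicle 5 (14.3), Sox5 in ShLuc 6 (173) and OSMI-1 6 (148), and Sox8 in vehicle 1 (396). Vehicle 1 appears for both Sox2, where it was high, and Sox8, where it was low.

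The effects of the 2 arms differed in a direct test for Sox6 (knockdown minus inhibitor log2 fold change -0.96), Sox9 (-0.88) and Sox8 (-0.35).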

How the results depend on the processing

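No SOX member's called direction reversed in any alternative. The knockdown calls of Sox9, Sox8 and Sox6 and the OSMI-1 call of Sox6 held in all 21 alternatives of their arm. Leaving out 1 library at a time gave 3 to 4 members called after knockdown, 1 to 3 after OSMI-1 and 2 to 3 for the arm difference; the 1 came without OSMI-1 replicate 6. Over all alternatives 3208 to 4063 genes were called after knockdown and 2376 to 2964 after OSMI-1. Replicate numbers recur in both groups, but only 1 of 5 same-number pairs after knockdown (replicate 3, r = 0.16) and 0 of 5 in the inhibitor arm correlated above 0.1 (r from -0.01 to 0.16 and from -0.10 to 0.05). On the third principal component ShLuc 3 and ShOgt 3 lay together, at -33.6 and -34.0, and 3 and 1 of 10 libraries correlated best with their own number. With the replicate block 3962 genes and 4 members were called after knockdown (3546 genes in the same libraries without it) and 2376 genes and 2 members after OSMI-1 (2540 genes without it). There Sox9 had a limma adjusted p of 0.0563 with the block and 0.0548 without it. The unblocked fits were chosen after seeing the data, and no other member changed its call under the block. They are the same fits as those without ShLuc 4 and without vehicle 3, so the 21 alternatives of each arm hold a repeated run. Sox4, Sox5, Sox2 and the antisense gene rest on few reads, down to 12 a library for Sox4, which limits small differences.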
